A study of Mus musculus with 2 samples.

Results

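The tumour necrosis factor (TNF) receptor superfamily was followed through 9 of its genes, Tnfrsf4, Tnfrsf18, Tnfrsf9, Tnfrsf25, Tnfrsf8, Cd27, Tnfrsf1b, Tnfrsf1a and Fas, in single cells sorted from mouse melanoma and from lymph node. The members are a list of symbols from this superfamily, drawn up with earlier results of these data known, and all 9 were present once among the 27998 genes listed in both libraries. The cells came from Foxp3Cre-YFP mice on the C57BL/6 strain, aged 5 to 8 weeks, in which Cre recombinase and a yellow fluorescent reporter are expressed from the locus of Foxp3, the transcription factor that defines regulatory T cells. Both groups carried this allele, and no other allele is named in the labels. The tumour library was made from a B16 tumour, a melanoma line of C57BL/6 origin, 14 days into growth, and the lymph node library from unchallenged mice. There was 1 library per group, and the sources used here give neither the sorting gate nor the number of mice. No p-value was therefore computed between the tissues, and every interval below covers counting error only.

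Receptors of this superfamily are single-pass membrane proteins with cysteine-rich extracellular repeats, and most are engaged by trimeric ligands of the TNF superfamily. Costimulatory members recruit TRAF adaptors and activate NF-kappaB signalling, which supports the survival and expansion of T cells. Members with a cytoplasmic death domain can in addition assemble complexes that activate caspases. Regulatory T cells are known for high levels of several costimulatory members, among them Tnfrsf18 (GITR), Tnfrsf4 (OX40) and Tnfrsf1b.

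After the filters on depth, gene number, mitochondrial share and other cell types, 1457 tumour cells and 2202 lymph node cells were retained, with medians of 8766 and 4100 unique molecular identifiers (UMIs) per cell. Of the 5 T cell markers, 4 were in the gene lists and all of these 4 were detected, at a summed 4409 CPM (UMIs of a gene relative to all UMIs, scaled to 1e6) in tumour cells and 3277 CPM in lymph node cells. Foxp3 itself was sparse, with a UMI in 16.7% of tumour cells and 9.58% of lymph node cells at full depth, and in 5.83% and 5.45% when every cell was thinned at random to 3000 UMIs. At that depth the other regulatory T cell markers that are not members had a UMI in 92.2% of tumour cells and 66.0% of lymph node cells for Ikzf2, 70.6% and 21.4% for Ctla4, 31.2% and 31.6% for Il2ra, and 17.8% and 23.5% for Nrp1. The melanoma markers, all 5 of which were detected in tumour cells, summed to 32.9 CPM there, against 0.0936 CPM in lymph node cells, where 4 of the 5 were at 0. A list of 10 mitotic genes summed to 1261 CPM in tumour cells and 282 CPM in lymph node cells, and 37.4% and 3.04% of the cells held 3 or more UMIs of it. The B cell list summed to 9.30 CPM in tumour cells and 17.7 CPM in lymph node cells, the macrophage list to 3.30 and 0.655 CPM, and the neutrophil and endothelial markers were at 0 in both.

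Tnfrsf4, Tnfrsf18, Tnfrsf9 and Tnfrsf1b were at least 2-fold higher in tumour cells than in lymph node cells, and Tnfrsf25 was at least 2-fold lower. The count of 4 of 9 members higher stands beside 13.2% of the 9976 genes with 50 or more UMIs over both libraries, and the count of 1 of 9 lower beside 7.7%. The same 4 members had their whole 95% interval beyond 2-fold higher, as did 8.8% of all genes, and Tnfrsf25 had its whole interval beyond 2-fold lower, as did 4.17%. All 9 members passed the minimum of 50 UMIs. The median log2 ratio of tumour over lymph node was 0.86 over the members and 0.14 over all genes. Scaling by TMM factors or by DESeq2 size factors in place of total UMIs shifted every log2 ratio by -0.15 or -0.14.

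**Figure D1:**
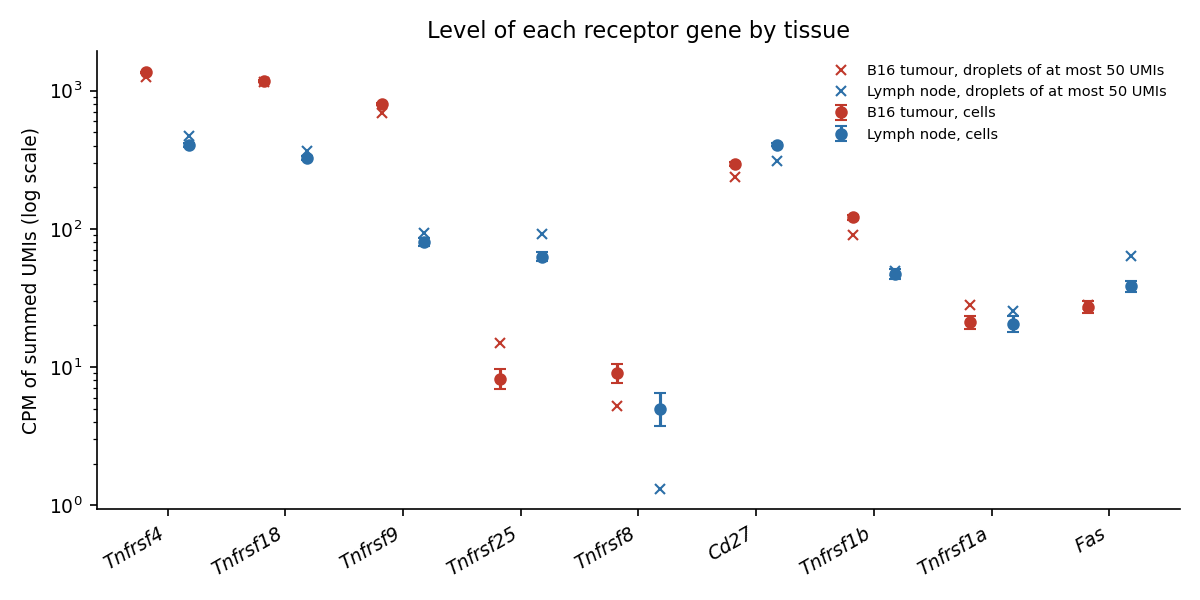
Level of each receptor gene in CPM of summed UMIs (log scale) in B16 tumour cells (red) and lymph node cells (blue). Circles are cells with exact Poisson 95% intervals, and crosses are droplets of at most 50 UMIs from the same library; Tnfrsf9 shows the widest gap upwards, at 807 against 80.3 CPM in cells, and Tnfrsf25 the widest downwards, at 8.22 against 62.8 CPM.

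Among the costimulatory members, Tnfrsf4 encodes OX40, the receptor for Tnfsf4. It had 22640 UMIs in tumour cells and 4325 UMIs in lymph node cells. This is 1358 CPM (95% interval 1341 to 1376) in tumour cells and 405 CPM (393 to 417) in lymph node cells, a 3.35-fold higher level in tumour (3.25 to 3.47). Tnfrsf18, which encodes GITR, the receptor for Tnfsf18, was at 1180 CPM (1164 to 1197) in tumour cells and 325 CPM (315 to 336) in lymph node cells. Its ratio was 3.63 (3.50 to 3.76), close to that of Tnfrsf4, and the intervals of the pair did not overlap. Tnfrsf4 and Tnfrsf18 are also neighbours, on chromosome 4 of mm10 at chr4:156013843-156016612 and chr4:156026164-156028895, both on the plus strand, with 9551 bases between them and no other protein-coding gene there in GENCODE M21. Tnfrsf18 shares 414 exonic bases with the antisense gene Gm16008, which itself had 10 UMIs in tumour cells and 6 UMIs in lymph node cells, and the sources used here do not give the strand setting of the counting.

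Tnfrsf9 encodes CD137, an activation-induced receptor for Tnfsf9. It had 13460 UMIs in tumour cells and 858 UMIs in lymph node cells, or 807 CPM (794 to 821) and 80.3 CPM (75.04 to 85.9). The level was 10.1-fold higher in tumour cells (9.38 to 10.8), the largest ratio among the 9 members. The gene lies at chr4:150914562-150946102 on the plus strand. In cells with a Foxp3 UMI, 244 in tumour and 211 in lymph node, the log2 ratio was 2.73 for Tnfrsf9, 1.52 for Tnfrsf4 and 1.82 for Tnfrsf18, beside 3.33, 1.75 and 1.86 over all cells. Melanoma and mitotic transcripts were both more abundant in the tumour library. With no UMI of any melanoma, macrophage or B cell filter gene allowed, which left 1115 tumour cells and 2175 lymph node cells, the log2 ratios of Tnfrsf9, Tnfrsf4 and Tnfrsf18 were 3.45, 1.87 and 1.94. Without cells of 3 or more mitotic UMIs, 912 and 2135 cells remained and the same ratios were 3.74, 2.15 and 2.27.

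The sequences before the RefSeq starts (GRCm38.p6) of the 3 genes that were higher together and of Tnfrsf25, which was lower, are shown so that the motif matches can be seen in place. Over 250 bases before each start, 4 motifs were searched on both strands: a degenerate NF-kappaB consensus, AP-1 (TGANTCA), RUNX (TGTGGT) and forkhead (GTAAACA). Of all 32817 RefSeq promoter windows of this length, 3.90% held the NF-kappaB consensus, 6.75% AP-1, 14.0% RUNX and 3.16% forkhead. Of the 11 windows of the 9 members, 2 held the NF-kappaB consensus, 3 held AP-1, 1 held RUNX and 0 held forkhead. The 250-base windows of Tnfrsf4 and Tnfrsf18 held no match to any of the 4 motifs, and their parts outside annotated exons are printed without capitals, at chr4:156013611-156013694 and chr4:156026072-156026163.
Tnfrsf4: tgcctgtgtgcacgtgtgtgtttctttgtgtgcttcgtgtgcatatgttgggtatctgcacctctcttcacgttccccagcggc
Tnfrsf18: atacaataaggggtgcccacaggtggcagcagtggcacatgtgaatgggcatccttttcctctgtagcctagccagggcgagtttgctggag
Tnfrsf9 has 2 RefSeq starts. The 250 bases before the first, at chr4:150919905-150920154, held no match. Before the second start, a pair of overlapping NF-kappaB matches lay at -43 to -34 and -42 to -33 inside a non-coding exon, with an AP-1 match at -15 to -9, and the 30 bases around the NF-kappaB pair, at chr4:150927947-150927976, are printed with that pair in capitals.
Tnfrsf9 first start: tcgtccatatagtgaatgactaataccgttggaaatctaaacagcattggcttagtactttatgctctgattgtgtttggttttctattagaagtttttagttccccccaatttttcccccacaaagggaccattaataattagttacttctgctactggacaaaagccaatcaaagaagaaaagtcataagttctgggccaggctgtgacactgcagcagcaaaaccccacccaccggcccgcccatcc
Tnfrsf9 second start: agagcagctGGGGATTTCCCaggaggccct
The 250 bases before the first start of Tnfrsf25, at chr4:152115684-152115933 on the plus strand, held a RUNX match on the minus strand at -92 to -87, in capitals.
Tnfrsf25: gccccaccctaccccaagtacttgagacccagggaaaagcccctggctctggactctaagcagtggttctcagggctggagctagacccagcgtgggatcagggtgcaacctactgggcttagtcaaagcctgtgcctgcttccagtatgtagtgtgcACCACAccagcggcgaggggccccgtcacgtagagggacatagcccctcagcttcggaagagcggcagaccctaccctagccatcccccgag
The other matches were an NF-kappaB and an AP-1 match before Tnfrsf8 and an AP-1 match before Fas. A match describes the letters of the window and says nothing of binding in these cells.

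Cd27, a costimulatory receptor for Cd70 that marks naive and memory lymphocytes, was among the most abundant members in both tissues. It was at 295 CPM (287 to 304) in tumour cells, from 4920 UMIs, and at 407 CPM (395 to 420) in lymph node cells, from 4350 UMIs. It was 1.38-fold lower in tumour cells (1.32 to 1.44). The log2 ratio of -0.46 became -0.06 once the mitotic cells were left out, and was -0.37 where only Foxp3-positive barcodes were summed. Cd27 lies on chromosome 6 at chr6:125232622-125237010 on the minus strand and shares 129 exonic bases with the microRNA gene Mir8113.

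Tnfrsf25 encodes DR3, the death domain receptor for Tnfsf15, which on T cells acts as a costimulatory receptor. It had 137 UMIs in tumour cells and 671 UMIs in lymph node cells, or 8.22 CPM (6.90 to 9.72) and 62.8 CPM (58.2 to 67.8). The level was 7.64-fold lower in tumour cells (6.35 to 9.25). Its log2 ratio stayed between -3.28 and -2.24 over 10 alternative choices of scaling and cells, the value nearest 0 being that without mitotic cells. It lies at chr4:152115934-152120119.

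Tnfrsf8, which encodes CD30, the receptor for Tnfsf8, was the scarcest member in lymph node cells. It had 150 UMIs in tumour cells and 53 UMIs in lymph node cells, or 8.999 CPM (7.62 to 10.6) and 4.96 CPM (3.72 to 6.49). Its ratio of 1.81 (1.32 to 2.53) lay under 2-fold, and its interval spanned it. The log2 ratio was 1.25 without mitotic cells, 1.15 without the 5% of cells with most UMIs and 1.47 in cells with a Foxp3 UMI, each beyond 2-fold. The gene is next to Tnfrsf1b on the minus strand of chromosome 4, at chr4:145267137-145315164.

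Tnfrsf1b and Tnfrsf1a encode both receptors for TNF itself. Tnfrsf1b, which lacks a death domain and is used by regulatory T cells, had 2020 UMIs in tumour cells and 504 UMIs in lymph node cells. At 121 CPM (116 to 127) in tumour cells and 47.2 CPM (43.2 to 51.5) in lymph node cells, it was 2.57-fold higher in tumour (2.33 to 2.84). In cells with a Foxp3 UMI its log2 ratio was 0.92, under 2-fold, against 1.36 over all cells. Tnfrsf1a, the broadly expressed death domain receptor, was at 21.1 CPM (18.9 to 23.4) in tumour cells and 20.6 CPM (17.97 to 23.5) in lymph node cells. Its log2 ratio was 0.03, the interval of the ratio ran from 0.861 to 1.22, and the sign turned under TMM and DESeq2 scaling, to -0.12 and -0.10. Tnfrsf1b lies at chr4:145213463-145246870 and Tnfrsf1a at chr6:125349362-125362484.

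Fas, the death domain receptor for Fasl, through which activated lymphocytes can be killed, had 454 UMIs in tumour cells and 410 UMIs in lymph node cells. It was at 27.2 CPM (24.8 to 29.9) in tumour cells and 38.4 CPM (34.8 to 42.3) in lymph node cells, 1.41-fold lower in tumour (1.23 to 1.61). Without mitotic cells its log2 ratio was -0.01. Fas lies on chromosome 19 at chr19:34290666-34327772 on the plus strand.

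UMIs count each transcript once from its 3' end, so levels were set against each other without division by gene length. In tumour cells the order ran from Tnfrsf4 through Tnfrsf18, Tnfrsf9, Cd27, Tnfrsf1b, Fas and Tnfrsf1a to Tnfrsf8 and Tnfrsf25, and Tnfrsf8 and Tnfrsf25 were the only neighbours whose intervals overlapped. In lymph node cells it ran from Cd27 and Tnfrsf4, whose intervals overlapped, through Tnfrsf18, Tnfrsf9, Tnfrsf25, Tnfrsf1b, Fas and Tnfrsf1a to Tnfrsf8. Tnfrsf4 stood at percentile 99.1 of the 14291 genes detected in tumour cells and at percentile 98.0 of the 13808 detected in lymph node cells. Tnfrsf9 stood at percentiles 98.6 and 90.2, and Tnfrsf25 at 49.7 and 87.4.

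Droplets of at most 50 UMIs, which hold free RNA, held the members too. Tnfrsf4 was at 1260 CPM in such tumour droplets and 473 CPM in such lymph node droplets, Tnfrsf18 at 1149 and 369 CPM, and Tnfrsf9 at 693 and 93.7 CPM. Tnfrsf25 was at 14.9 CPM (9.09 to 23.0) and 92.0 CPM, above its level in the cells of each library, with overlapping intervals in the tumour. Fas was at 28.3 and 63.8 CPM, and Tnfrsf1a at 28.3 and 25.5 CPM. In the lymph node the droplet levels of Tnfrsf4, Tnfrsf18, Fas and Tnfrsf25 were above those of the cells beyond their intervals. Tnfrsf8, at 5.21 CPM in tumour droplets and 1.32 CPM in lymph node droplets, was lower there than in the cells of each library, from 7 and 3 UMIs. The tissue differences of Tnfrsf4, Tnfrsf18, Tnfrsf9 and Tnfrsf25 were thus also present in free RNA, and shares of cells with a UMI were set beside barcodes of another cell type.

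At 3000 UMIs per cell, which kept all 1457 tumour cells and 1634 lymph node cells and left out 568 shallower lymph node cells, 90.7% of tumour cells (Clopper-Pearson 95% interval 89.1 to 92.2) and 52.1% of lymph node cells (49.7 to 54.6) had a Tnfrsf4 UMI. For Tnfrsf18 the shares were 91.7% (90.2 to 93.1) of tumour cells and 56.3% (53.9 to 58.7) of lymph node cells, and for Tnfrsf9 72.9% (70.5 to 75.2) and 12.9% (11.3 to 14.6). Tnfrsf1b had a UMI in 31.9% (29.5 to 34.4) of tumour cells and 10.2% (8.74 to 11.7) of lymph node cells. In the opposite direction, Tnfrsf25 had one in 3.02% (2.20 to 4.03) and 17.9% (16.04 to 19.8), and Cd27 in 58.8% (56.2 to 61.4) and 68.5% (66.2 to 70.8). The difference for Cd27, tumour minus lymph node, was -9.72 percentage points, against -5.28 without mitotic cells and -1.03 in Foxp3-positive cells. Fas was at 8.92% (7.51 to 10.5) and 10.6% (9.19 to 12.2), Tnfrsf1a at 6.66% (5.43 to 8.06) and 6.18% (5.06 to 7.46), and Tnfrsf8 at 2.33% (1.62 to 3.25) and 1.22% (0.749 to 1.88). For Fas, Tnfrsf1a and Tnfrsf8 the intervals of the tissues overlapped.

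**Figure D2:**
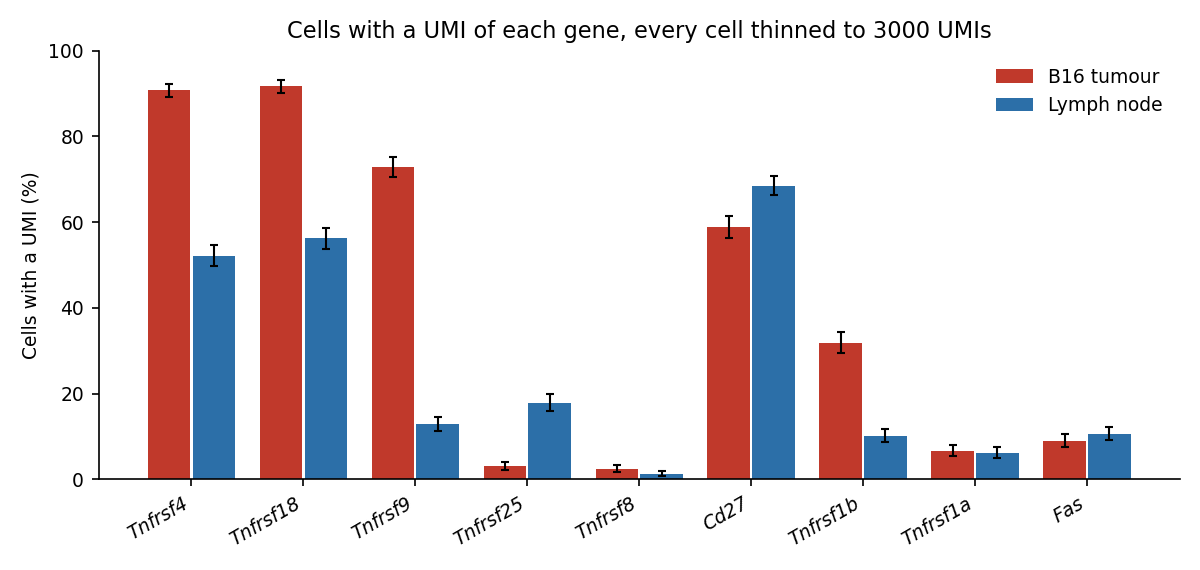
Percentage of cells with at least 1 UMI of each receptor gene after every cell was thinned to 3000 UMIs, in B16 tumour (red, 1457 cells) and lymph node (blue, 1634 cells). Bars start at 0 and error bars are Clopper-Pearson 95% intervals; Tnfrsf9 stands at 72.9% against 12.9%, and Tnfrsf25 at 3.02% against 17.9%.

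Before thinning, the shares in tumour and lymph node cells were 98.5% and 59.1% for Tnfrsf4, 99.5% and 65.9% for Tnfrsf18, 91.2% and 17.9% for Tnfrsf9, 66.4% and 16.5% for Tnfrsf1b, and 7.76% and 24.5% for Tnfrsf25. Unthinned, Cd27 was in 87.0% and 80.9%, the reverse of its order at equal depth, Fas in 22.9% and 15.5%, Tnfrsf1a in 20.8% and 9.49%, and Tnfrsf8 in 8.03% and 2.18%. As background, the 15 tumour barcodes removed as melanoma, with a median of 70488 UMIs before they were thinned to the same 3000, had a Tnfrsf4 UMI in 3 (95% interval of the share 4.33% to 48.1%), a Tnfrsf18 UMI in 3 and a Tnfrsf9 UMI in 0, which allows a share of up to 21.8%. Cd27, Tnfrsf1b and Fas were also in 0 of the 15. The tumour shares of Tnfrsf4, Tnfrsf18, Tnfrsf9, Cd27 and Tnfrsf1b lay above these intervals, and that of Fas lay within its own. The retained tumour cells had a median of only 8766 UMIs, so thinning kept a smaller part of any free RNA in the melanoma barcodes. The comparison therefore cannot decide whether a share lay above the background of a retained cell. Of the same 15 barcodes, 1 had a Tnfrsf25 UMI and 1 a Tnfrsf8 UMI (6.67% each, 0.169 to 31.9), and 2 a Tnfrsf1a UMI (13.3%, 1.66 to 40.5). The tumour shares of Tnfrsf25, Tnfrsf8 and Tnfrsf1a were below these values and within their intervals. At this number of barcodes Tnfrsf25 and Tnfrsf8 were not set apart from background, and this holds for their values by cluster below. Tnfrsf1a is broadly expressed, so its UMIs in these barcodes may be the melanoma cells' own, which was not tested. For Tnfrsf1a the comparison therefore cannot decide on background, here or by cluster. Before thinning, Tnfrsf1a and Tnfrsf4 each had a UMI in all 15 of these barcodes. Tnfrsf18 had one in 14, Tnfrsf9 in 12, Tnfrsf1b in 8, Cd27 in 6, Fas in 3, Tnfrsf25 in 2 and Tnfrsf8 in 1. In the lymph node, the 9 barcodes removed as B cells had a median of 3309 UMIs. The 5 of them with 3000 UMIs had a Tnfrsf4 UMI in 1 and a Tnfrsf18 UMI in 1 (interval 0.505% to 71.6% for each), and none of the other 7 members, which allows up to 52.2%, so the lymph node background was not resolved at this number.

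Cell by cell, a tumour cell held a mean of 4.87 Tnfrsf4 UMIs per 3000 (SD 4.96 over cells) and a lymph node cell 1.15 (SD 1.89). Tnfrsf18 averaged 4.27 (SD 3.31) in tumour cells and 0.970 (SD 1.16) in lymph node cells, and Tnfrsf9 2.86 (SD 3.49) and 0.226 (SD 0.803). The variance over the mean was 5.06 in tumour cells and 3.11 in lymph node cells for Tnfrsf4, 2.57 and 1.40 for Tnfrsf18, and 4.25 and 2.85 for Tnfrsf9. Cells with 5 or more Tnfrsf9 UMIs were 21.6% of tumour cells and 0.673% of lymph node cells, and the highest single cells held 24 and 11.

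**Figure D3:**
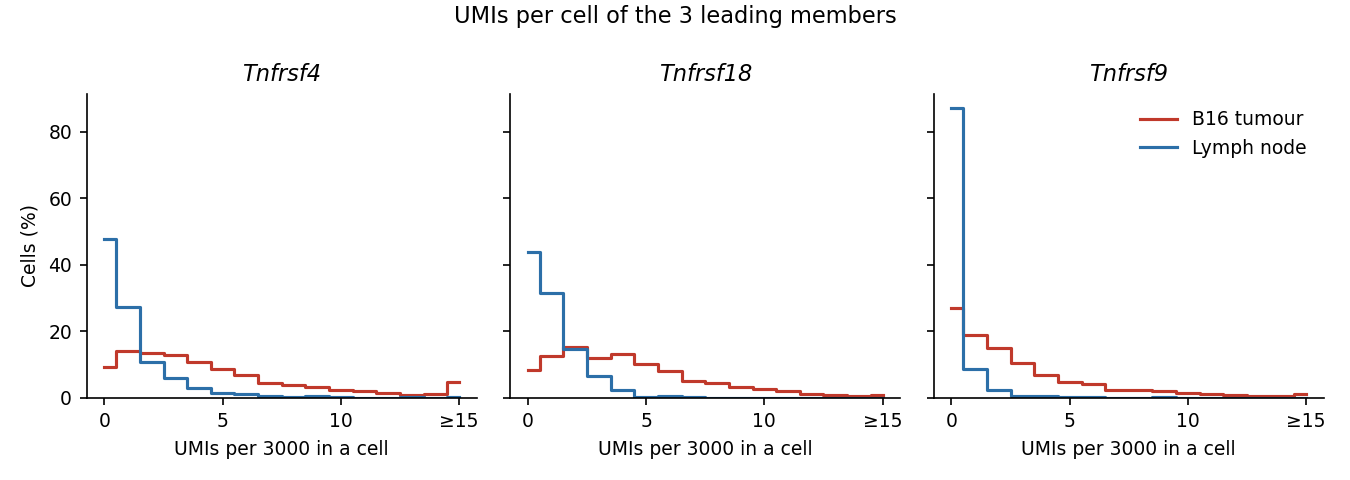
Distribution of Tnfrsf4, Tnfrsf18 and Tnfrsf9 UMIs per cell, each cell thinned to 3000 UMIs, as the percentage of B16 tumour cells (red) and lymph node cells (blue) at each UMI number, with 15 and more joined. Median cells hold 4, 4 and 2 UMIs in tumour and 1, 1 and 0 in lymph node.

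All 3 of Tnfrsf4, Tnfrsf18 and Tnfrsf9 had a UMI in 65.8% of tumour cells (63.3 to 68.2) and 6.79% of lymph node cells (5.62 to 8.12). None of the 3 had one in 1.17% of tumour cells (0.681 to 1.86) and 23.4% of lymph node cells (21.4 to 25.6). The median cell held UMIs of 4 of the 9 members in tumour and 2 in lymph node, and 12 and 3 member UMIs in all. Tnfrsf9 made up 20.9% of the member UMIs in tumour cells and 5.45% in lymph node cells, whereas Cd27 made up 7.89% and 30.6%, and Tnfrsf25 0.255% and 5.01%. The family was thus dominated by Tnfrsf4, Tnfrsf18 and Tnfrsf9 in tumour cells and by Cd27, Tnfrsf4 and Tnfrsf18 in lymph node cells.

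Co-variation was described across cells of 1 library, with Pearson's r of log(UMI + 1) at 3000 UMIs, where all cells share their library and depth. Of the 36 pairs of members, 9 reached r of 0.1 in the 1457 tumour cells and 5 in the 1634 lymph node cells, and none was at or under -0.1. The share of all gene pairs at this r was not worked out, so these counts show no trait of the family. The strongest pairs in tumour cells were Tnfrsf4 with Tnfrsf18 at 0.47, Tnfrsf18 with Tnfrsf9 at 0.42 and Tnfrsf4 with Tnfrsf9 at 0.42. In lymph node cells the same pairs had r of 0.31, 0.17 and 0.29. With cells thinned to 1811 UMIs the tumour values fell to 0.372, 0.361 and 0.357. The genes also held more UMIs per cell in the tumour, so a difference in r between the tissues was not separated from level. Tnfrsf1b had r of 0.18 with Tnfrsf4 in tumour cells and 0.17 in lymph node cells, which became 0.057 and 0.145 when cells were thinned to 1811 UMIs, and r of 0.08 and 0.18 with Tnfrsf9. Cd27 had r of 0.21 with Tnfrsf18, 0.15 with Tnfrsf4 and 0.13 with Tnfrsf9 in tumour cells, and 0.05, -0.01 and 0.02 in lymph node cells. Without mitotic cells the tumour values were 0.141, 0.092 and 0.074, so that the pairs with Tnfrsf4 and Tnfrsf9 were under 0.1. Pairs with Tnfrsf25, Tnfrsf8, Tnfrsf1a or Fas, the 4 sparse genes in tumour cells, were all under 0.1 in both libraries, a size that carries no finding in sparse counts.

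**Figure D4:**
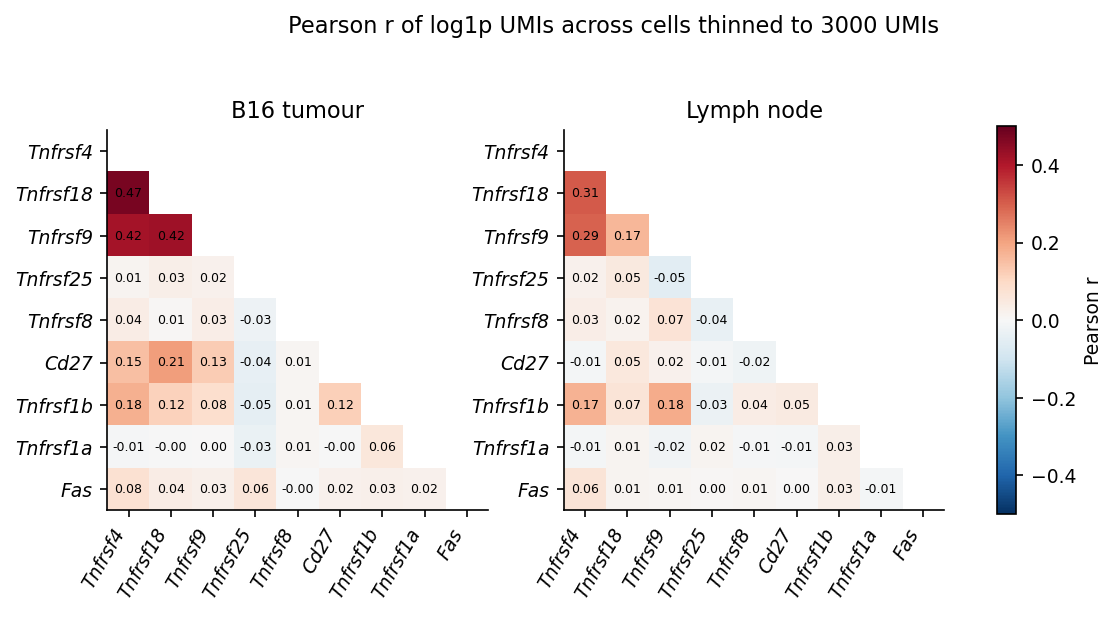
Pearson's r of log(UMI + 1) for the 36 pairs of receptor genes across cells thinned to 3000 UMIs, in B16 tumour (left, 1457 cells) and lymph node (right, 1634 cells). Red is positive and blue negative; the block of Tnfrsf4, Tnfrsf18 and Tnfrsf9 reaches 0.42 to 0.47 in tumour and 0.17 to 0.31 in lymph node.

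The presence of a UMI gave the same picture. In tumour cells a Tnfrsf9 UMI was found in 75.7% of the 1322 cells with Tnfrsf4 and in 45.2% of the 135 cells without it. In lymph node cells it was found in 18.9% of the 852 cells with Tnfrsf4 and in 6.39% of the 782 without. A Tnfrsf1b UMI was found in 34.3% of tumour cells with Tnfrsf9 and 25.6% of those without it, and in 21.8% and 8.43% of lymph node cells. Within single cell clusters of at least 100 cells, a division chosen after seeing the data, the r of Tnfrsf4 and Tnfrsf18 was 0.397 to 0.466 over the 5 tumour clusters and 0.131 to 0.446 over 5 lymph node clusters. That of Tnfrsf4 and Tnfrsf9 was 0.345 to 0.462 in tumour and 0.080 to 0.334 in lymph node clusters. The pairs of Cd27 with Tnfrsf4, Tnfrsf18 and Tnfrsf9 had r of -0.049, -0.033 and -0.040 within the 115 cells of tumour cluster 3, too small to carry a finding.

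Among the 3278 genes with a UMI in at least 10% of tumour cells, the gene most like Tnfrsf4 was Tnfrsf18, followed by Tnfrsf9 and Cd2, an adhesion receptor of T cells (r = 0.33). Tnfrsf18 was most like Tnfrsf4, then Tnfrsf9 and the class I histocompatibility gene H2-K1 (0.38), and Tnfrsf9 most like Tnfrsf18, then Tnfrsf4 and the transcription factor gene Crem (0.30). Cd27 was most like the interferon-inducible gene Ifi27l2a (0.22), Cd2 (0.21) and Tnfrsf18, and Tnfrsf1b most like Tnfrsf4. Among 2821 such genes in lymph node cells, Tnfrsf4 was most like Tnfrsf18, Tnfrsf9 and the activation marker Cd83 (0.29). There Tnfrsf18 was most like Tnfrsf4, Ikzf2 (0.23) and the actin-capping gene Capg (0.19), and Tnfrsf9 like Tnfrsf4, the anti-apoptotic gene Bcl2a1b (0.29) and the granule proteoglycan gene Srgn (0.26). Lymph node Tnfrsf1b was most like the transcription factor gene Maf, S100a11 and the costimulatory receptor gene Icos (0.22 each), and Cd27 like the nuclear RNA Malat1 (0.21) and mt-Co1 (0.17). No gene reached 0.15 with Tnfrsf25, Tnfrsf8, Tnfrsf1a or Fas in either library. With another random thinning, 19 of these 27 named gene and member combinations recurred.

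Cells of each library were clustered without the genes of the receptor and ligand superfamilies, so the members did not define the clusters, which are called by number and leading genes. The tumour clusters were T1 (Hist1h2ap, Ube2c, Birc5, Nusap1; 320 cells), T2 (Ifit3, Ifit1, Rsad2, Ltb4r1; 301 cells), T3 (Tcf7, Klf2, Evl, S1pr1; 115 cells), T4 (Ccl1, Hells, Ung, Mcm2; 243 cells) and T5 (Ccl5, Lag3, AA467197, Csf1; 478 cells). The lymph node clusters were LN1 (Igfbp4, Gpr83, Bcl2, Nr4a1; 639 cells), LN2 (Ly6c1, Dapl1, Satb1, Jchain; 519 cells), LN3 (Nkg7, Penk, Tbc1d4, Xcl1; 537 cells), LN4 (Ccl5, Maf, Icos, Nav2; 304 cells), LN5 (Ifit3, Ifit1, Isg15, Usp18; 150 cells) and LN6 (Hist1h2ap, Stmn1, 2810417H13Rik, Ube2c; 53 cells). For Tnfrsf4, Tnfrsf18 and Tnfrsf9 the lowest tumour cluster lay above the highest lymph node cluster. Mean Tnfrsf4 ran from 3.03 UMIs per 3000 in T1 to 6.43 in T5, against 0.339 in LN2 to 2.02 in LN4. Mean Tnfrsf18 ran from 2.59 in T1 to 5.37 in T2, against 0.549 in LN6 to 1.47 in LN4. Mean Tnfrsf9 ran from 1.47 in T3 to 3.88 in T2, against 0.034 in LN2 to 0.450 in LN3. T3, led by Tcf7, Klf2 and S1pr1, genes of resting and recirculating T cells, thus held the least Tnfrsf9 in the tumour, as LN2 did in the lymph node. The mean in T1 was close to that of T3, at 1.69. By share, 40.9% of T3 cells (31.8 to 50.4) and 63.4% of T1 cells (57.9 to 68.7) had a Tnfrsf9 UMI.

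**Figure D5:**
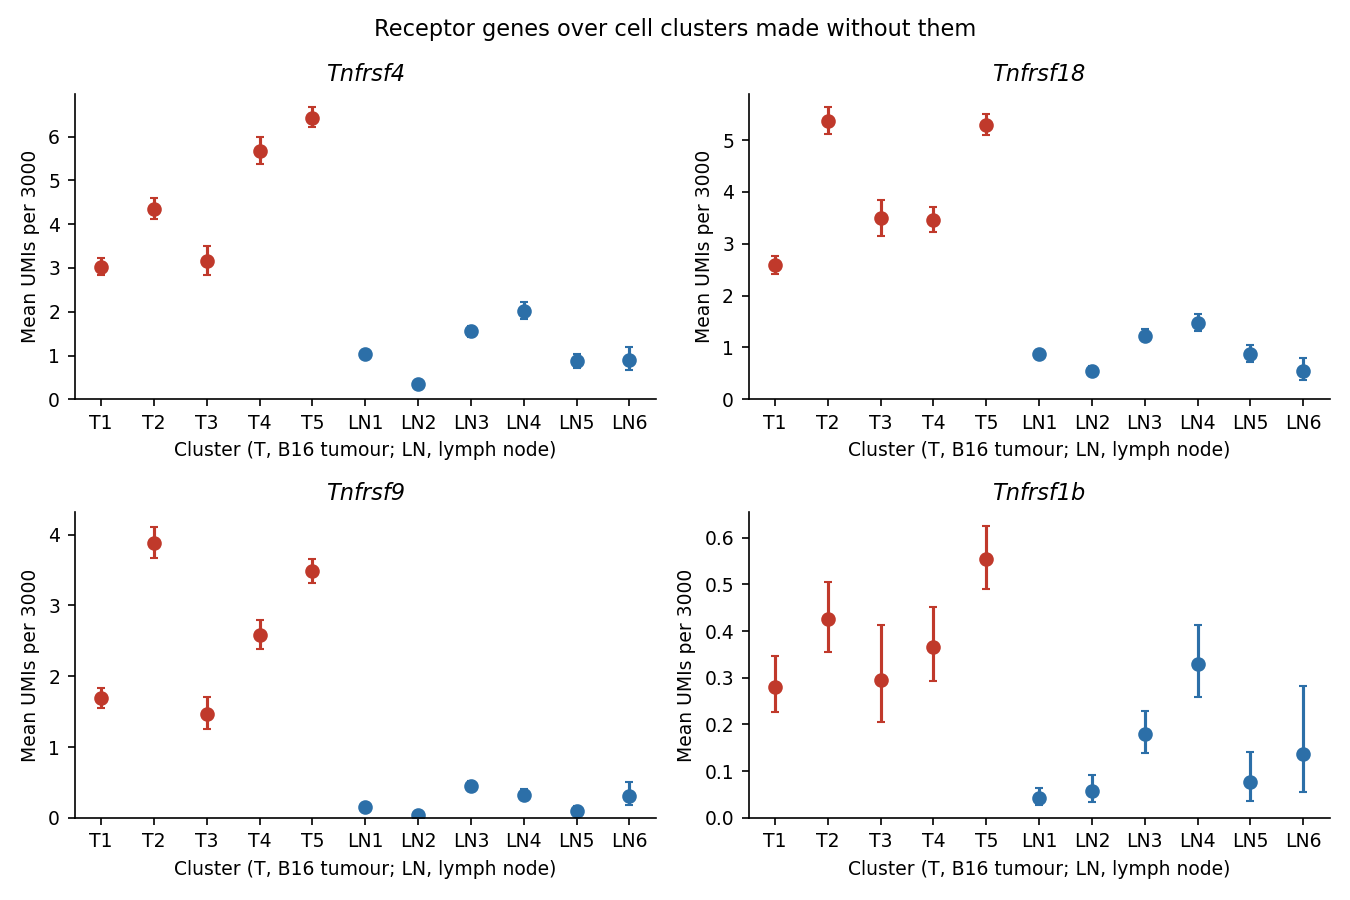
Mean UMIs per 3000 of Tnfrsf4, Tnfrsf18, Tnfrsf9 and Tnfrsf1b in cell clusters of B16 tumour (T1 to T5, red) and lymph node (LN1 to LN6, blue), with exact Poisson 95% intervals of the summed UMIs. The clusters of the tissues are apart for the first 3 genes and overlap for Tnfrsf1b, which reaches 0.554 in T5 and 0.329 in LN4.

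The remaining members had other profiles over the clusters. Tnfrsf1b ran from 0.281 in T1 to 0.554 in T5 and from 0.043 in LN1 to 0.329 in LN4, so that the tissues overlapped, and 57 of the 228 LN4 cells with 3000 UMIs had a UMI of it, against 4.12% of LN1 cells. Cd27 ran from 0.606 in T1 to 1.42 in T3 and from 0.333 in LN6 to 1.46 in LN4, lowest in the cluster led by mitotic genes in each tissue. Fas had a UMI in 21.7% of T3 cells and 3.75% of T1 cells, and in 5.88% to 12.7% over the lymph node clusters. Tnfrsf25 had a UMI in 8.70% of T3 cells and 0.625% of T1 cells, and in 20.8% of LN1 cells and 7.84% of LN6 cells. Tnfrsf8 was highest in LN6 in the lymph node, in 4 of 51 cells (7.84%, 2.18 to 18.9), with 0 in LN1 and LN2. Its interval in LN6 overlapped that in LN4, at 3.51% (1.53 to 6.80). Tnfrsf1a ran from 4.12% to 8.58% over tumour and from 3.05% to 7.46% over lymph node clusters.

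At equal depth, the 545 tumour cells with 3 or more mitotic UMIs held less of the leading members than the other 912. Their means per 3000 UMIs were 3.37 and 5.76 for Tnfrsf4, 2.87 and 5.10 for Tnfrsf18, 1.96 and 3.40 for Tnfrsf9, and 0.804 and 1.25 for Cd27. These cells were also deeper, with a median of 16509 UMIs against 6561, and before thinning they held more UMIs per cell, 18.1 and 14.0 for Tnfrsf4 and 10.9 and 8.24 for Tnfrsf9. The direction thus depended on whether UMIs were counted per cell or per 3000 UMIs. In the lymph node the 64 such cells of 1634 had a mean of 0.375 Cd27 UMIs per 3000 against 1.30 in the others. Before thinning the Cd27 means were 2.42 and 2.12, at median depths of 15743 and 4644 UMIs. Tnfrsf9 was at 0.266 and 0.224 per 3000 UMIs. It had a UMI in 15.6% (7.76 to 26.9) and 12.8% (11.2 to 14.6) of these cells, so the intervals overlapped. The split by a Foxp3 UMI showed smaller differences. Tumour cells with a Foxp3 UMI held 5.18 Tnfrsf4 UMIs per 3000 and the others 4.81, and for Tnfrsf9 3.25 and 2.79. In the lymph node the values were 1.30 and 1.13 for Tnfrsf4 and 0.274 and 0.220 for Tnfrsf9. There Tnfrsf18, at 0.952 and 0.972, and Cd27, at 1.16 and 1.28, went the other way. Foxp3 is sparse, so cells without a UMI are not cells shown to lack it.

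Of the other 19 listed receptors of the superfamily, 9 reached 20 UMIs over both libraries. Of these, 0 were at least 2-fold higher in tumour cells, 1 was lower and 8 lay between, with a median log2 ratio of -0.26. The one that was lower was Tnfrsf26, with 46 UMIs in tumour cells and 95 UMIs in lymph node cells (3.22-fold lower, 2.24 to 4.69). Tnfrsf13b, a receptor for Tnfsf13b best known from B cells, had 611 and 442 UMIs, or 36.7 and 41.4 CPM. These levels were above Fas, Tnfrsf1a and Tnfrsf8 in each tissue, but in the lymph node within the interval of Fas (34.8 to 42.3). Relt had 148 and 122 UMIs. The ratios of tumour over lymph node were 0.886 (0.782 to 1.003) for Tnfrsf13b and 0.777 (0.608 to 0.996) for Relt.

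The ligands differed in both directions. Of 18 listed, 12 were measured, with 4 at least 2-fold higher in tumour cells, 4 at least 2-fold lower and 4 between, and a median log2 ratio of -0.02. Tnfsf9, the ligand of Tnfrsf9, had 225 UMIs in tumour cells and 28 UMIs in lymph node cells, 5.15-fold higher (3.47 to 7.92). Cd70, the ligand of Cd27, had 162 and 20 UMIs, 5.19-fold higher (3.25 to 8.72). Tnfsf10, the apoptosis-inducing ligand TRAIL, was 2.80-fold higher (2.28 to 3.46), and Fasl, with 109 and 30 UMIs, 2.33-fold higher (1.54 to 3.61). Tnfsf8, the ligand of Tnfrsf8, had 75 UMIs in tumour cells and 587 UMIs in lymph node cells, 12.2-fold lower (9.59 to 15.7). Lta, which encodes lymphotoxin alpha, was 4.57-fold lower (3.89 to 5.40), and Cd40lg, the T cell help ligand for CD40, 4.17-fold lower (3.23 to 5.44). Tnfsf14 was 2.85-fold lower (1.97 to 4.18). Ltb, encoding lymphotoxin beta, was the most abundant ligand at 1237 CPM in tumour cells and 1289 CPM in lymph node cells. Tnf had 295 and 183 UMIs, a ratio of 1.03 (0.856 to 1.25), and Tnfsf11, which encodes RANKL, 230 and 200 UMIs. Tnfsf4 and Tnfsf18, the ligands of Tnfrsf4 and Tnfrsf18, had 0 UMIs in the retained cells of both libraries.

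Downstream of the receptors, 1 of 17 adaptor and ubiquitin genes was at least 2-fold higher in tumour cells and 16 lay between, with a median log2 ratio of 0.28. That one was Traf1, an adaptor bound by costimulatory members, at 307 CPM in tumour cells and 130 CPM in lymph node cells (2.36-fold, 2.23 to 2.51). Siva1, from the list of death domain signalling genes, encodes a protein that binds the tail of CD27 and was 2.34-fold higher in tumour cells (2.11 to 2.60). Of 16 NF-kappaB subunits and inhibitors 5 were higher and 11 between, with a median of 0.41. Tnfaip3, which encodes the feedback inhibitor A20, was 7.76-fold higher (6.35 to 9.57), Nfkb2 3.25-fold, Bcl3 3.24-fold, Nfkbia, the inhibitor IkappaB alpha, 3.03-fold and Nfkbiz 2.26-fold. Of 8 costimulatory receptors of other families, 2 were higher and 6 between, with a median of 0.90: Ctla4, an inhibitory receptor of regulatory T cells, was 6.46-fold higher and Icos 2.72-fold. These counts stand beside the 13.2% of all genes that were at least 2-fold higher and the 7.7% that were lower. The mitotic and melanoma lists also differed between the libraries, and their part in these values was not tested.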

How the data were processed

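The authors deposited 1 unfiltered matrix per library, which holds whole-number UMI counts that were not normalized. Per the labels, sorted cells were processed with the Chromium 3' chemistry; per the submitters' processing notes, Cell Ranger and the mm10 build were used, and the sources used here give neither version nor annotation. The tumour matrix held 23618037 UMIs on 193946 barcodes and the lymph node matrix 14000036 UMIs on 153212. A barcode was retained at 3834 or more UMIs in tumour and 1811 or more in lymph node (10% of percentile 99 of the top 3000 barcodes), with at least 200 genes, at most 10% mitochondrial UMIs, fewer than 20 UMIs of Pmel, Dct and Mlana, fewer than 3 of C1qa, C1qb and Lyz2, and fewer than 2 of Cd79a and Ms4a1. The last 3 filters removed 18 tumour and 11 lymph node barcodes. No doublet caller was run, and 1 retained barcode was shared by the libraries. No column of the files was left unused.

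CPM were computed here from UMIs summed over cells. Ratios have exact conditional-binomial 95% intervals, and shares and correlations were computed after thinning each cell to 3000 UMIs. Clusters came from scanpy 1.11.5 (2000 variable genes, 30 principal components, 15 neighbours, Leiden resolution 0.6). edgeR 4.0.16 and DESeq2 1.42.0 gave alternative scaling factors only. The steps were tested on simulated data. Positions are from GENCODE M21, which held 27645 of the 27998 identifiers, and sequences from RefSeq. The members and lists were chosen with earlier results of these data known. Named were all members, up to 4 genes per list whose interval lay beyond 2-fold or, for receptors and ligands, all with 100 or more UMIs, and the 3 most similar genes per member at r of 0.15 or more; Tnfsf4, Tnfsf18 and Nfkbiz were named after their values were seen, and the full count of the death domain list is not reported here. Alternatives covered scaling, weight of cells, cell filters, count minimum, thinning depth and seed, correlation type and clustering resolution.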

Additional observations from a re-analysis of the deposited data

How the results depend on the processing

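No paired analysis was possible because there was 1 library per group, and for the same reason no replicate could be left out. Every alternative listed for these data was run. The count of members at least 2-fold higher was 4 or 5 and of those lower 1 under every alternative of scaling and cells. By its ratio, and from few UMIs, Tnfrsf8 passed 2-fold without mitotic cells, without the deepest 5% of cells and in cells with a Foxp3 UMI. In the last of these Tnfrsf1b did not. Log2 ratios ranged over these alternatives from 1.52 to 2.15 for Tnfrsf4, 1.67 to 2.27 for Tnfrsf18, 2.73 to 3.74 for Tnfrsf9, 0.92 to 1.78 for Tnfrsf1b, 0.71 to 1.47 for Tnfrsf8, -3.28 to -2.24 for Tnfrsf25, -0.62 to -0.06 for Cd27, -0.69 to -0.01 for Fas and -0.12 to 0.55 for Tnfrsf1a.

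Over all genes, 1313 were at least 2-fold higher and 768 lower, 1109 and 972 under TMM scaling and 1131 and 928 with DESeq2 size factors. The lower genes numbered 465 by means over thinned cells, 264 in cells with a Foxp3 UMI (730 higher), 1802 with a minimum of 1 UMI and 354 with 200. Lymph node pairs with r of 0.1 or more numbered 8 in cells with a Foxp3 UMI, against 5, and tumour pairs, 9, numbered 6 without mitotic cells and 6 at 1811 UMIs per cell, where Tnfrsf1b fell under 0.1 with Tnfrsf4 (0.057), Tnfrsf18 (0.056) and Cd27 (0.055). At that depth the share difference was -9.63 points for Tnfrsf25, against -14.9, and 14.2 for Tnfrsf1b, against 21.8; at 5000 UMIs it was 23.7 for Tnfrsf4, against 38.6. Within clusters, an alternative chosen after seeing the data, r turned negative in tumour cluster 3 for Cd27 with Tnfrsf4 (-0.049), Tnfrsf18 (-0.033) and Tnfrsf9 (-0.040) and for Tnfrsf18 with Tnfrsf1b (-0.093), and for Tnfrsf9 with Tnfrsf1b in lymph node clusters 2 (-0.046) and 5 (-0.069). All of these were under 0.1 in size, which carries no finding in sparse counts, so no reversal was read from them. The cause of these values was not tested. Of the other values, 176 moved by less than their counting error or a tolerance on r of 0.05, and 122 moved by more. The sign of the Tnfrsf1a ratio turned under TMM (-0.12) and DESeq2 (-0.10) scaling. The number of members with a larger share of tumour cells, 6, was 5 to 7, with no share over all genes beside it. Of these 6, Tnfrsf8 and Tnfrsf1a had overlapping intervals between the tissues. With another random thinning the Tnfrsf1a difference was -0.755 points. Low depth limited Tnfrsf8, Tnfrsf1a and tumour Tnfrsf25.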
